A study of Mus musculus with 6 samples.

Results

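The cell division genes described here are 42 genes of DNA replication and mitosis, chosen by name and read from the deposited table of 16344 genes, in which all 42 had a value. They were divided into 21 S phase genes, which includes the regulators of entry into S phase, and 21 mitosis genes. The study grew tumours of the mouse high-grade serous ovarian cancer line 60577 in the peritoneal cavity of syngeneic mice for 21 days. Both groups then received 3 weekly cycles of carboplatin, a platinum drug that crosslinks DNA, after which 3 tumours came from mice on vehicle and 3 from mice gavaged daily for 84 days with AZD7507, an inhibitor of the macrophage growth factor receptor CSF1R. Tumours were taken at the humane endpoint, so the day of collection may differ between animals and cannot be told apart from treatment. Every tumour derives from 1 injected cell line, and the labels used here give no genotype, strain, age or animal number. Values are log2 RPKM, reads scaled to gene length and library size, as the authors normalized them with cqn, and are given as mean ± SD with n = 3 per group. The depth of the libraries is unknown.

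Replication begins when origins are licensed in G1: CDC6 and CDT1 load the ring of MCM proteins onto DNA. In S phase CDC45 and the GINS complex turn that ring into the active helicase, polymerases copy both strands, and the sliding clamp PCNA holds them on DNA. Mitosis is driven by cyclin B with CDK1, by the Aurora and Polo kinases and by the spindle checkpoint. Genes of the first group are classical targets of E2F factors at the G1/S boundary. Many of the second are activated in G2 through FOXM1 and the B-MYB complex. These act at a CHR element, often near CCAAT boxes bound by NF-Y. Tumour cells usually account for most of the dividing cells of such a tumour.

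Some features of the libraries touch the results. Pancreatic acinar genes were high in Vehicle 2 (titled Ctrl_G11L) and AZD7507 2 (titled AZD_G7NM): 11 of 16 markers had a value, and their summed level was 5817 and 6426 RPKM there against at most 12.6 RPKM in the other 4 libraries. The summed level of 18 of 18 macrophage markers ran from 502 to 804 RPKM with vehicle, highest in Vehicle 2, and from 107 to 251 RPKM with AZD7507. Of the serous and epithelial markers 12 of 15 had a value. They summed to 410 to 638 RPKM with vehicle, lowest in Vehicle 2, and to 581 to 722 RPKM with AZD7507. Their mean log2 level was 3.14, 3.36 and 3.34 in Vehicle 1 to 3, highest in Vehicle 2. Of the 12 markers, 7 were below both other vehicle libraries in Vehicle 2 and 4 above both, against 41% and 39.9% of all genes. Relative to the mean of Vehicle 1 and 3 they ran from -1.95 to 2.97, with a median of -0.31. The keratin gene Krt18 and the transcription factor gene Wt1 were abundant, at a log2 RPKM of 7.02 ± 0.19 and 6.41 ± 0.26 with vehicle and 7.43 ± 0.05 and 6.52 ± 0.18 with AZD7507, whereas Pax8, another marker of serous ovarian tumours, was almost absent at -3.20 ± 0.97 with vehicle and -3.11 ± 0.64 with AZD7507. In a whole tumour, fewer dividing cells and less RNA per dividing cell cannot be told apart.

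The promoters of the S phase and mitosis genes differed in the elements described above. RefSeq promoter windows of GRCm38.p6, from 250 bases before to 50 after a transcript start, were found for 34 of the 42 genes, 17 in each group. An E2F-type match (TTTGGCG or TTTCCCG or TTTCGCG or TTTGCCG, either strand) lay in the windows of 9 of 17 S phase genes (52.9%) and 3 of 17 mitosis genes (17.6%), against 12.4% of the 10781 measured genes with such a window. A CHR match (TTTGAA, either strand) lay in 3 of 17 S phase genes (17.6%) and 12 of 17 mitosis genes (70.6%), against 14.3%. CCAAT, on either strand, lay in 10 of 17 (58.8%) and 15 of 17 (88.2%), against 42.4%, and each of the 12 mitosis genes with a CHR match also held CCAAT. CHR and CCAAT matches shared a window in 2 of 17 S phase genes (11.8%) and 12 of 17 mitosis genes (70.6%), against 5.74%. These motifs overlap on the 2 strands in places, and a match is a run of letters, not a measured binding site. The other replication and mitosis genes of 2 further lists had the same ordering: E2F-type matches in 17 of 35 (48.6%) against 10 of 47 (21.3%), and CHR matches in 4 of 35 (11.4%) against 31 of 47 (66%). There CHR and CCAAT matches shared a window in 1 of 35 (2.86%) and 23 of 47 (48.9%), so not every mitosis gene with CHR held both.

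Shown here are the 160 bases before the start for 6 genes whose levels are followed below, with all matches to the 3 motifs in capitals: 2 helicase genes with E2F-type matches, the reductase gene Rrm2 that departed from its group, and 3 mitosis genes with CHR matches. The windows are Mcm5 at chr8:75109349-75109508 on the plus strand, Mcm6 at chr1:128359706-128359865 on the minus strand, Rrm2 at chr12:24708094-24708253 on the plus strand, Cdk1 at chr10:69352913-69353072 on the minus strand, Cdc20 at chr4:118437344-118437503 on the minus strand and Kif11 at chr19:37376222-37376381 on the plus strand, all in GRCm38.p6 and written 5′ to 3′ along the gene.
Mcm5: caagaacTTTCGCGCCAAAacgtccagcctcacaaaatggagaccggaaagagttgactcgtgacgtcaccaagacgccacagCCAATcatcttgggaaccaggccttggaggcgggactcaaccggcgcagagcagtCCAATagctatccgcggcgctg
Mcm6: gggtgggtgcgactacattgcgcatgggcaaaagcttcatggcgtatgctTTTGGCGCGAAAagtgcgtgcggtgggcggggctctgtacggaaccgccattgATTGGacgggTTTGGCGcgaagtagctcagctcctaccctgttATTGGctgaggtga
Rrm2: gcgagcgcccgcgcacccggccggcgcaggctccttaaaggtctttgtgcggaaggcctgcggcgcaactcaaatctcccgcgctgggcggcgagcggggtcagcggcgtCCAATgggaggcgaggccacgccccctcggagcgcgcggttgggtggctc
Cdk1: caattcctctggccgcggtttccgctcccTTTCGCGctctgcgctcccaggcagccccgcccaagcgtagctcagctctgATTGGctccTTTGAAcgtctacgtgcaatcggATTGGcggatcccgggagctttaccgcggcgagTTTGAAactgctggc
Cdc20: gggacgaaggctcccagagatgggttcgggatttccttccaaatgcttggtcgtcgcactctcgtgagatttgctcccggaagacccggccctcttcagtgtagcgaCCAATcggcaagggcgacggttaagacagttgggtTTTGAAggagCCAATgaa
Kif11: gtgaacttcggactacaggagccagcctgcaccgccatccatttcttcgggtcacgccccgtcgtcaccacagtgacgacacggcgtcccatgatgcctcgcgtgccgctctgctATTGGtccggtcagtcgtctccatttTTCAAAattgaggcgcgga
In Mcm5 the capitals at -153 mark E2F-type matches on both strands that run into each other, and in Mcm6 those at -110 do the same, with a further match at -47. Rrm2 held a CCAAT box at -50 and neither of the other motifs. Cdk1, the mitotic kinase gene, held an E2F-type match at -131 and CHR matches at -71 and -15. In Cdc20 a CHR match at -18 lay between CCAAT boxes at -53 and -8, and Kif11 had a reverse-strand CHR match at -19 and a reverse-strand CCAAT box at -45.

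**Figure D1:**
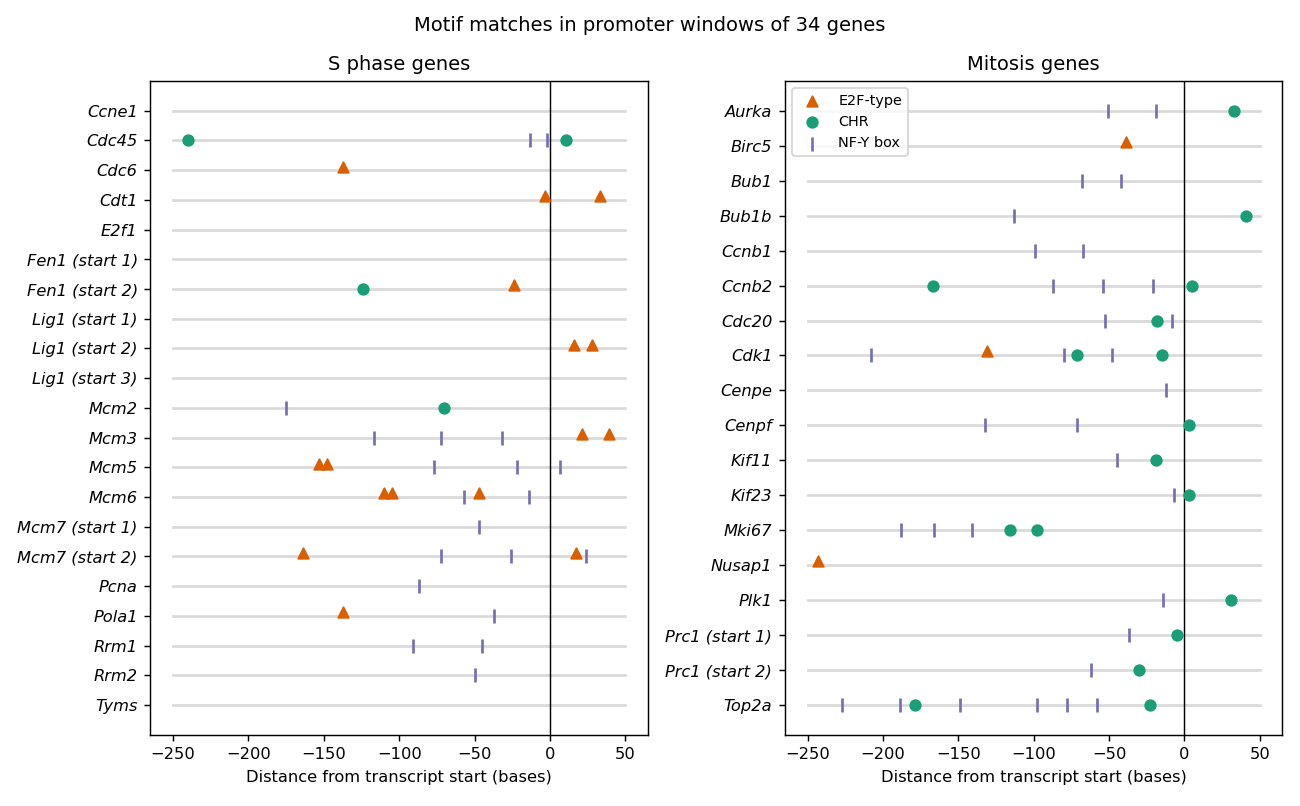
Positions of motif matches (x axis, bases from the RefSeq transcript start, from 250 before to 50 after) in the promoters of 17 S phase genes (left) and 17 mitosis genes (right), with triangles for E2F-type, circles for CHR and ticks for the NF-Y (CCAAT) box; genes with several annotated starts have a line for each, numbered by their coordinate on the chromosome. CHR matches lie in 12 of 17 mitosis genes and 3 of 17 S phase genes.

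The comparison of AZD7507 with vehicle asked whether inhibiting CSF1R after carboplatin altered the dividing compartment of the relapsed tumours. No replication or mitosis gene passed the test (limma, Benjamini-Hochberg adjusted p under 0.05 over all 16344 genes; smallest adjusted p of the 42 genes 0.48), where 0.355% of all genes did: 0.0184% were higher and 0.337% lower. At an unadjusted p under 0.05, 2 of the 42 genes were higher and 0 lower, against 3.31% and 5.49% of all genes. The differences, AZD7507 minus vehicle, were small and mostly positive: 19 of 21 S phase genes and 20 of 21 mitosis genes lay above 0, against 54.5% of all genes, with medians of 0.16 and 0.15 on the log2 scale against 0.03 over all genes. Of the 12 measured serous and epithelial markers 11 also lay above 0, with a median of 0.30, and their part in these differences was not tested. Without Vehicle 2 that median was 0.08 with 8 of 12 above 0. Without both Vehicle 2 and AZD7507 2 it was 0.24, also with 8 of 12. The mean log2 level of the S phase genes was 3.70 ± 0.09 with vehicle and 3.85 ± 0.18 with AZD7507, and that of the mitosis genes was 3.18 ± 0.39 and 3.34 ± 0.23, so that both differences of group means, 0.14 and 0.16, were smaller than the larger SD. The mitosis median depended on single libraries. Without Vehicle 1 it was -0.01 with 10 of 21 genes above 0, and without Vehicle 3 it was 0.07 with 14 of 21. It was 0.07 with 15 of 21 without AZD7507 3, and 0.40 with 21 of 21 without Vehicle 2. The S phase median was 0.03 without AZD7507 3. Leaving out 1 library moved the difference by over 1.5 times for 39 of the 42 genes; Pcna, Fen1 and Cdc20 were the exceptions. The drug target gene Csf1r, measured in the same libraries, was at 4.97 ± 0.45 and 2.35 ± 0.56, a change of -2.62 (SE 0.32, limma adjusted p 0.035).

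**Figure D2:**
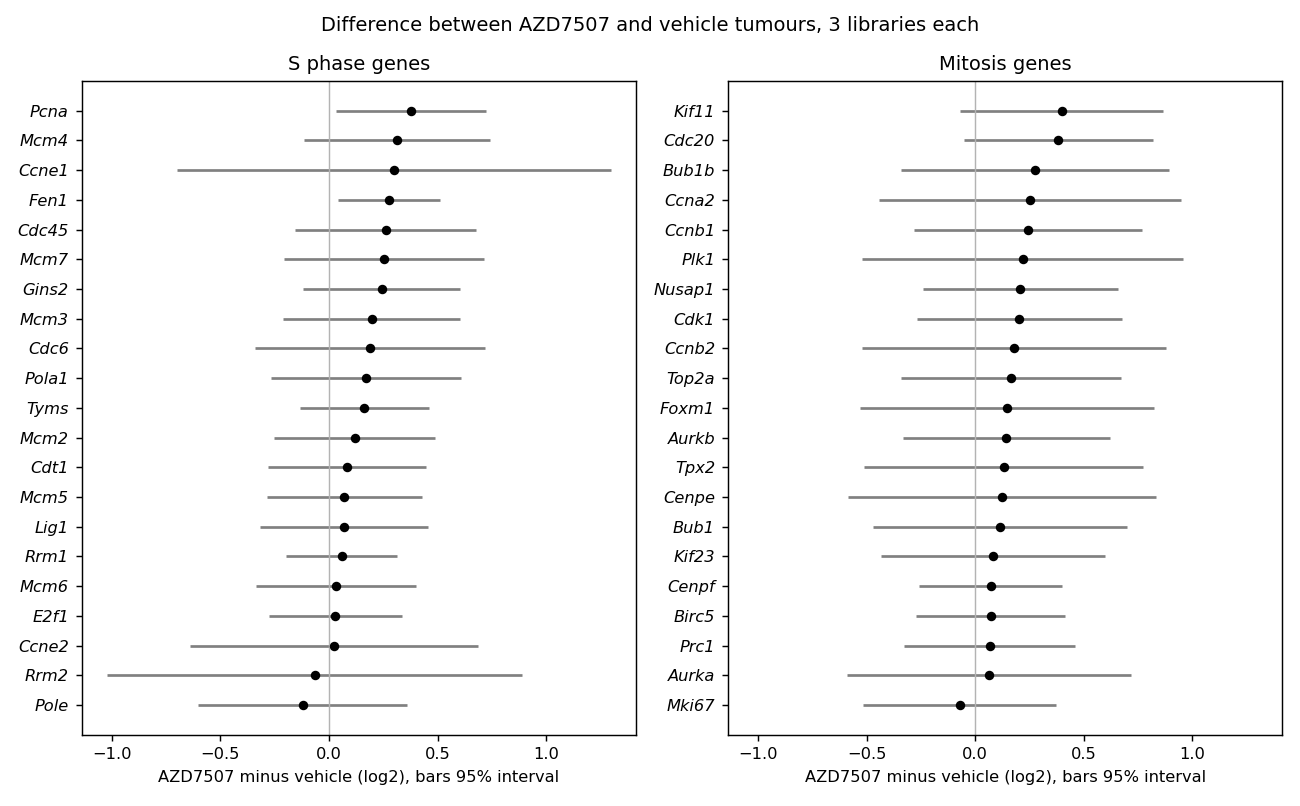
Difference between AZD7507 and vehicle (x axis, log2) for the 21 S phase genes (left) and 21 mitosis genes (right), with points for the limma estimate from 3 libraries per group and bars for its unadjusted 95% interval. Points lie between -0.12 for Pole and 0.40 for Kif11, and the bars of Pcna and Fen1 alone leave out 0.

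Among the licensing genes all 8 had a positive difference, none of them past the test. Mcm4, a subunit of the MCM ring on chromosome 16 (15623897 to 15637400), was at 4.96, 4.56 and 4.63 in Vehicle 1 to 3 and at 4.73, 5.33 and 5.03 in AZD7507 1 to 3. AZD7507 2 was the highest library for Mcm4, and the groups overlapped, with a difference of 0.31 (95% interval -0.12 to 0.74). The MCM subunit gene Mcm7 was at 4.51, 3.85 and 4.52 with vehicle and 4.54, 4.41 and 4.69 with AZD7507. Its difference of 0.25 came with 1 low vehicle library, Vehicle 2, and the gene overlaps 2 protein-coding genes on the opposite strand, so its reads may be shared. Mcm2, Mcm3, Mcm5 and Mcm6 differed by 0.12, 0.20, 0.07 and 0.03. For Mcm6 the interval ran from -0.33 to 0.40 on the log2 scale. The loader genes Cdc6 and Cdt1 differed by 0.19 and 0.08. Cdc6 was lowest in AZD7507 1, at 1.10, and highest in AZD7507 2, at 1.79, a range within 1 group wider than the difference between the groups.

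The helicase activators and polymerases gave the same picture. Cdc45 was at 1.68, 1.73 and 1.74 with vehicle and at 1.63, 2.24 and 2.07 with AZD7507, a difference of 0.26 with AZD7507 1 below every vehicle library. Gins2, of the GINS complex, differed by 0.24. Pola1, the catalytic subunit of the polymerase that starts new strands, differed by 0.17, and Pole, the leading-strand polymerase, by -0.12. Pole was 1 of the 2 S phase genes with a negative difference, and Vehicle 1 was its highest library at 4.08.

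Pcna, Fen1 and Lig1 act at the clamp, where fragments of the lagging strand are finished. Of the 42 genes, only Pcna and Fen1 had groups that did not overlap, a smaller share than over all genes. Over all genes, 7.34% did not overlap with AZD7507 higher and 8.02% with AZD7507 lower, against 2 and 0 of the 42 genes. Pcna, the clamp itself (chromosome 2, 132249162 to 132253314), was at 5.28, 5.16 and 5.18 with vehicle and at 5.30, 5.67 and 5.79 with AZD7507. The nearest libraries of Pcna, Vehicle 1 and AZD7507 1, all but touched, and the difference of 0.38 (SE 0.15) was 1.30-fold with a limma adjusted p of 0.52. Fen1, the flap endonuclease that trims these fragments (chromosome 19, 10199132 to 10204169), was at 4.50, 4.56 and 4.67 with vehicle and at 4.80, 4.90 and 4.86 with AZD7507. Its difference of 0.28 (SE 0.10), or 1.21-fold, had the smallest p of the 42 genes, and the limma adjusted p was 0.48. Fen1 overlaps a protein-coding gene on the opposite strand and Pcna has 2 annotated processed pseudogenes, and the strand setting is not given in the sources used here. In all, 12 of the 42 genes overlap another protein-coding gene. Besides Mcm7 and Fen1 these are Cdt1, Cdc45, Gins2, Lig1, Ccne2, Ccna2, Foxm1, Cdc20, Nusap1 and Prc1, with Cdt1 and Foxm1 overlapped on the same strand. Tyms, Ccnb1 and Ccnb2 also have an annotated pseudogene. Lig1, the ligase that seals the fragments, differed by 0.07.

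Nucleotide supply and the G1/S regulators held the most variable genes. Rrm1, the large subunit of ribonucleotide reductase, which makes deoxyribonucleotides, had the smallest spread over the 6 libraries of any of the 42 genes, from 5.24 to 5.46. Its partner Rrm2, the small subunit, had nearly the largest: 3.16, 4.81 and 3.43 with vehicle and 3.57, 3.55 and 4.08 with AZD7507. Vehicle 2 stood far above the others for Rrm2, and the difference of -0.07 turned to 0.44 without it. Tyms, thymidylate synthase, differed by 0.16 (95% interval -0.13 to 0.46). The cyclin E gene Ccne1 was at 0.22, 1.19 and -0.36 with vehicle and at 0.31, 1.20 and 0.44 with AZD7507. Ccne2, its paralog, was at 2.55, 3.38 and 2.37 with vehicle and at 2.51, 3.14 and 2.71 with AZD7507. For both cyclin E genes the 2 highest libraries were Vehicle 2 and AZD7507 2, those with high acinar markers, whose part in this was not tested. E2f1, the transcription factor gene of the G1/S boundary, was even across the tumours, from 3.35 to 3.75, with a difference of 0.03.

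**Figure D3:**
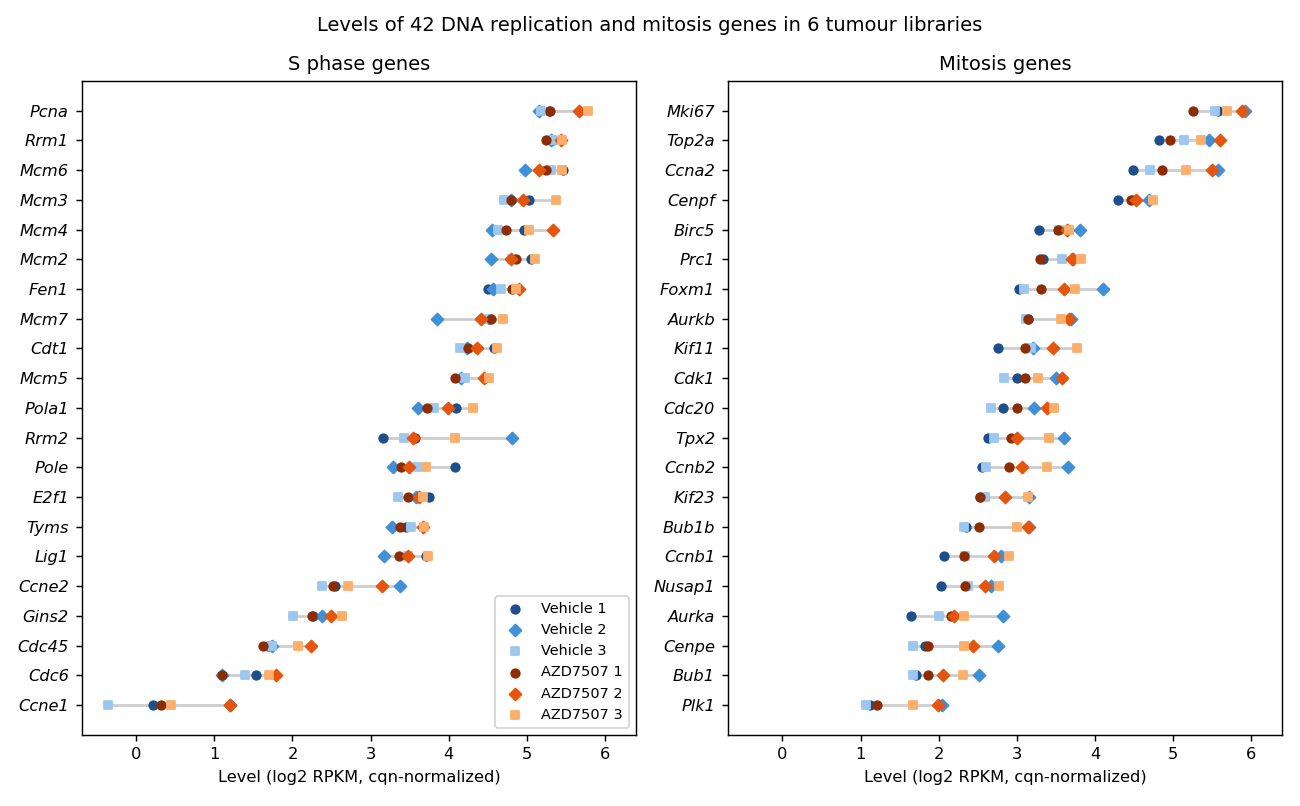
Level of each S phase gene (left) and mitosis gene (right) in each of the 6 libraries (x axis, log2 RPKM), with vehicle in blue, AZD7507 in orange and brown, and a grey line for the range. Vehicle 2 (blue diamond) is above both other vehicle libraries for 21 of 21 mitosis genes, against 39.9% of all genes. It is below both for 12 of 21 S phase genes, against 41% of all genes.

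Levels per gene length spanned a wide range. Mki67, which encodes the proliferation antigen Ki-67, was highest with a mean log2 RPKM of 5.65 over the 6 libraries (SD 0.25), followed by Pcna at 5.39 (SD 0.27), Rrm1 at 5.35 (SD 0.08), Mcm6 at 5.27 (SD 0.19) and the topoisomerase gene Top2a at 5.23 (SD 0.30). Each of these differed from the next in order by no more than the larger of their SDs, whereas Mki67 was above Top2a in all 6 libraries. At the other end stood the kinase gene Plk1 at 1.52 (SD 0.44), Cdc6 at 1.44 (SD 0.29) and Ccne1 at 0.50 (SD 0.60). The MCM subunits, which act in a common ring, lay between 4.31 for Mcm5 and 5.27 for Mcm6.

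In mitosis the cyclin and CDK genes overlapped between the groups. Ccnb1, cyclin B1, was at 2.07, 2.80 and 2.33 with vehicle and at 2.32, 2.71 and 2.90 with AZD7507, a difference of 0.24. Ccnb2, cyclin B2, was at 2.56, 3.65 and 2.61 with vehicle and at 2.90, 3.07 and 3.39 with AZD7507, a difference of 0.18. In both genes Vehicle 2 reached into or above the AZD7507 range while Vehicle 1 was the lowest library. Ccnb1 and Ccnb2 each have an annotated pseudogene, so reads may have been split. Ccna2, the cyclin of S phase and G2, differed by 0.25, but by 0.034 without Vehicle 1 and 0.58 without Vehicle 2. Cdk1 differed by 0.20, by 0.065 without Vehicle 3 and by 0.40 without Vehicle 2. Foxm1, the transcription factor gene that drives the G2 programme, was at 3.03, 4.10 and 3.09 with vehicle and at 3.31, 3.61 and 3.75 with AZD7507. All 3 AZD7507 values of Foxm1 lay between Vehicle 3 and Vehicle 2, and the difference was 0.15.

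Kinases, checkpoint and spindle genes followed. Aurka, the centrosomal Aurora kinase, was at 1.65, 2.82 and 2.01 with vehicle and at 2.16, 2.19 and 2.32 with AZD7507, a difference of 0.06. Its vehicle SD of 0.60 was far larger than its AZD7507 SD of 0.09. Aurkb, Plk1 and the survivin gene Birc5 differed by 0.14, 0.22 and 0.07, with Plk1 at 0.036 without AZD7507 2 and 0.54 without Vehicle 2. Cdc20, the activator of the anaphase-promoting complex (chromosome 4, 118432901 to 118437352), was at 2.82, 3.22 and 2.67 with vehicle and at 3.00, 3.38 and 3.48 with AZD7507. Its difference of 0.38 was among the larger ones, 1.30-fold with an interval of -0.05 to 0.82, and Vehicle 2 lay above AZD7507 1. Bub1 and Bub1b, kinase-like components of the spindle checkpoint, differed by 0.11 and 0.27. Kif11, the motor that separates spindle poles (chromosome 19, 37376403 to 37421859), was at 2.75, 3.20 and 3.18 with vehicle and at 3.10, 3.47 and 3.76 with AZD7507. The Kif11 difference of 0.40 (SE 0.20) was the largest of the 42 genes with all 6 libraries, and its limma adjusted p was 0.64. It was 0.24 without AZD7507 3. The other spindle genes, Tpx2, Nusap1, Prc1 and Kif23, differed by 0.07 to 0.21, and the centromere genes Cenpe and Cenpf by 0.12 and 0.07. Nusap1 was at 0.044 without Vehicle 1 and 0.36 without Vehicle 2. Top2a, which untangles sister chromatids, differed by 0.16, and by 0.0045 without Vehicle 1. Mki67 was at 5.58, 5.92 and 5.54 with vehicle and at 5.26, 5.88 and 5.68 with AZD7507. It was the mitosis gene with a negative difference, -0.07 (95% interval -0.52 to 0.37), its lowest library being AZD7507 1.

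S phase and mitosis genes parted most clearly within the vehicle group. In Vehicle 2 all 21 mitosis genes were above both other vehicle libraries, against 39.9% of all genes, by 0.23 for Kif11 to 1.07 for Ccnb2 over the mean of Vehicle 1 and 3 (median 0.60). Of the S phase genes 4 of 21 were above both and 12 of 21 below both, against 41% of all genes below, with a median of -0.13. Those 4 were Rrm2, Ccne1, Ccne2 and Gins2. Rrm2 was 2.85-fold higher and Ccne1 2.40-fold higher in Vehicle 2, whereas all 8 licensing genes were below the mean of Vehicle 1 and 3, Mcm7 most, at -0.66. This sets 1 tumour against 2, and no test was made. The mean level of the S phase genes exceeded that of the mitosis genes by 0.89 in Vehicle 1, 0.60 in Vehicle 3 and 0.08 in Vehicle 2, and by 0.45 to 0.57 in the AZD7507 libraries. Vehicle 2 also had the highest macrophage and the lowest serous and epithelial sums of the vehicle group, and high acinar markers. Its mean log2 level of the serous and epithelial markers was the highest of the vehicle group, though 7 of the 12 markers were below both other vehicle libraries and 4 above both. The part of these features was not tested. The acinar markers were as high in AZD7507 2. Both acinar-rich libraries were above the other 4 for 8 of 21 mitosis genes and 2 of 21 S phase genes, against 13% of all genes.

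**Figure D4:**
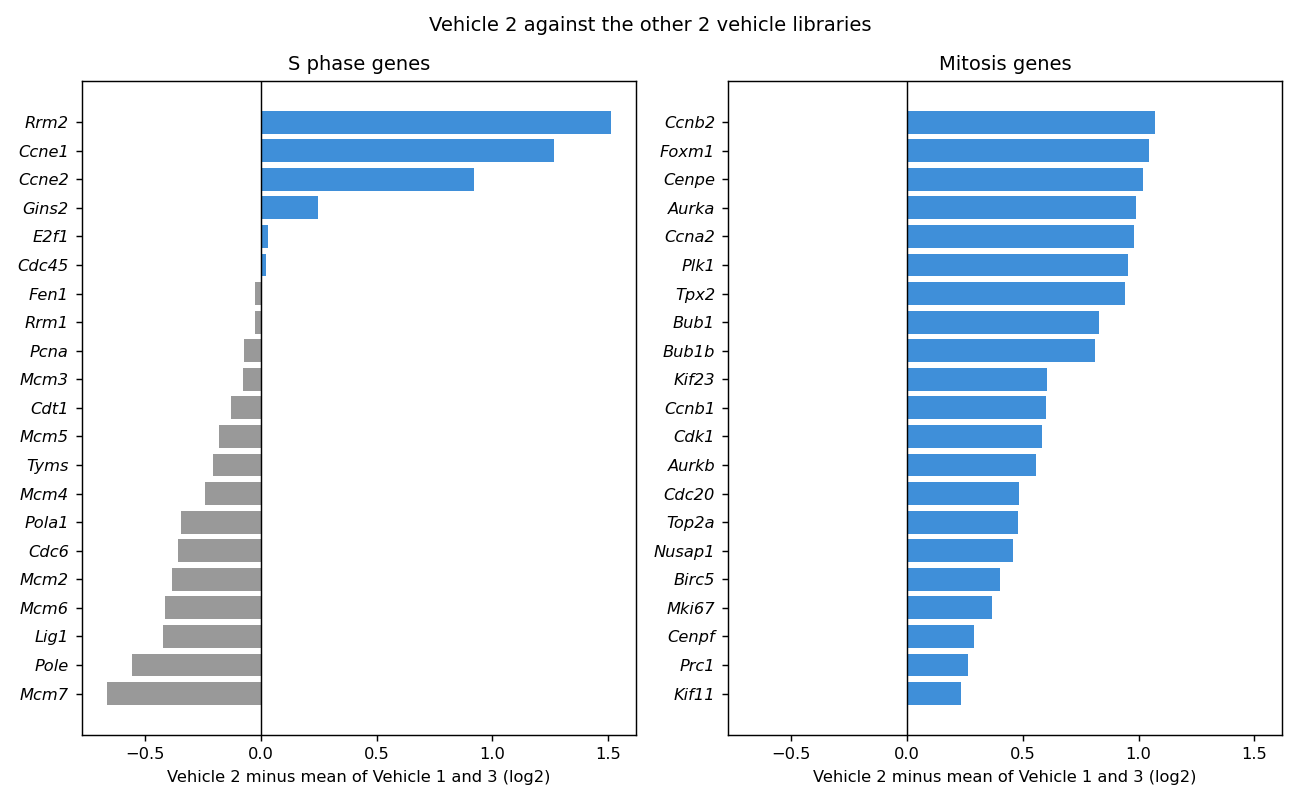
Vehicle 2 minus the mean of Vehicle 1 and Vehicle 3 (x axis, log2) for the 21 S phase genes (left) and 21 mitosis genes (right), 1 library against 2. All mitosis bars are positive, from 0.23 to 1.07, whereas 15 of 21 S phase bars are negative and Rrm2 reaches 1.51.

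Leaving out both acinar-rich libraries kept 2 tumours per group and moved S phase and mitosis genes apart. The median difference became 0.07 for the S phase genes, with 16 of 21 above 0, and 0.35 for the mitosis genes, with 20 of 21 above 0. Both AZD7507 libraries were above both vehicle libraries for 5 of 21 S phase genes and 11 of 21 mitosis genes, against 26.6% of all genes, and below both for 0 of the 42, against 23.6%. No gene of the 42 passed (limma, smallest adjusted p 0.23), where 0.00612% of all genes were called higher and 0.0795% lower. At an unadjusted p under 0.05, 7 were higher and 0 lower, against 7.59% and 8.77% of all genes. The 7 were Rrm2 at 0.53, Ccna2 at 0.41, Ccnb2 at 0.56, Foxm1 at 0.47, Aurka at 0.41, Cdc20 at 0.50 and Tpx2 at 0.50. The 5 S phase genes below 0 there were Pole at -0.29 and, closer to 0, Cdc6 at -0.06, Lig1 at -0.05, and Mcm5 and Mcm6 at -0.04 each. Without Vehicle 2 alone the medians were 0.07 and 0.40, and 1 S phase gene and 9 mitosis genes were higher at an unadjusted p under 0.05, against 6.62% of all genes; none were lower, against 8.31%. Without AZD7507 2 alone the medians were 0.11 and 0.09. Vehicle 2 was above both other vehicle libraries for all 21 mitosis genes, so leaving it out raises their differences. With all libraries and the acinar level as a covariate, the medians were 0.17 for the S phase genes and 0.12 for the mitosis genes.

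**Figure D5:**
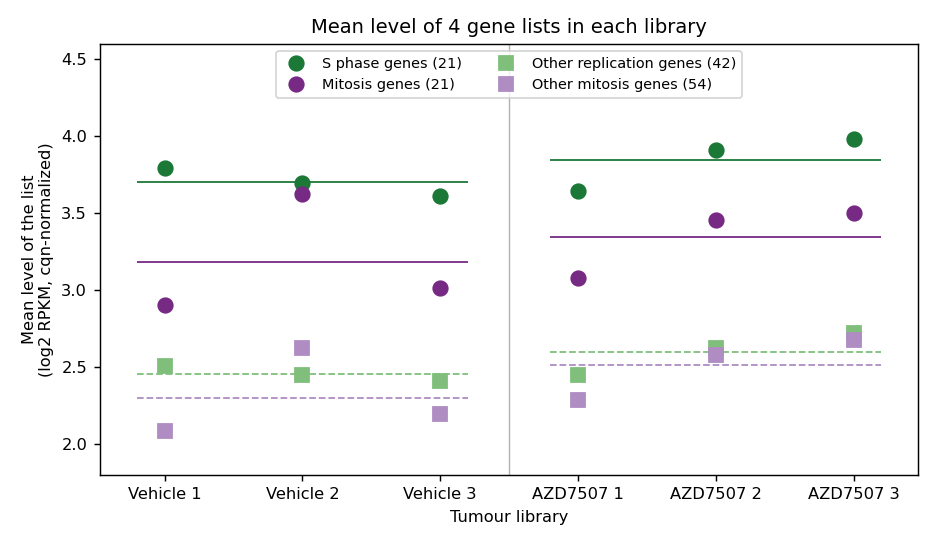
Mean log2 RPKM of 4 gene lists (y axis) in each library (x axis), with circles for the 21 S phase and 21 mitosis genes, squares for 42 other replication and 54 other mitosis genes, and horizontal lines for the group means. Mitosis circles are at 2.90, 3.62 and 3.01 with vehicle, and S phase circles at 3.79, 3.70 and 3.61.

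A further 3 lists of the same machinery held 0 genes past the test in either direction (limma adjusted p). Over all genes, 54.5% had a positive difference. At an unadjusted limma p under 0.05, 3.31% of all genes were higher and 5.49% lower. Of 42 other replication genes, all measured, 32 had a positive difference (median 0.18), 3 were higher at an unadjusted p under 0.05 and 0 lower. Among those with the smallest p were Pole3, a small polymerase epsilon subunit, at 4.42 ± 0.11 with vehicle and 4.69 ± 0.02 with AZD7507, and Rpa2, of the single-strand binding complex, at 2.67 ± 0.12 and 2.97 ± 0.12. Their differences were 0.27 and 0.30, with limma adjusted p of 0.51 and 0.53. Of 54 other mitosis genes, all measured, 51 had a positive difference (median 0.21), with 0 at an unadjusted p under 0.05. The smallest p there belonged to Cdc25c, a phosphatase that activates CDK1, at 0.16 ± 0.34 and 0.67 ± 0.24, and to the cytokinesis genes Racgap1, at 3.69 ± 0.15 and 3.95 ± 0.15, and Cep55, at 3.08 ± 0.34 and 3.51 ± 0.32. Vehicle 2 was above both other vehicle libraries for 49 of the 54 other mitosis genes, against 39.9% of all genes. Of the 42 other replication genes 15 were above both and 15 below both, against 41% of all genes below. Their median was 0.04 over the mean of Vehicle 1 and 3, where that of the S phase genes was -0.13.

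Among 32 G1 regulators and inhibitors, all measured, 23 had a positive difference (median 0.07), against 54.5% of all genes. At an unadjusted limma p under 0.05, 1 was higher and 1 lower, against 3.31% and 5.49% of all genes. Cdkn2a, which encodes the CDK4 and CDK6 inhibitor p16 and the p53 activator ARF, was at 4.67, 4.46 and 4.68 with vehicle and at 5.01, 4.90 and 4.93 with AZD7507. The groups did not overlap for Cdkn2a, with a difference of 0.34 (SE 0.11, limma adjusted p 0.39). Rb1, the retinoblastoma gene that restrains E2F, was at 2.55, 2.81 and 2.88 with vehicle and at 2.44, 2.26 and 2.56 with AZD7507. Its lowest vehicle and highest AZD7507 libraries were nearly equal, and the difference was -0.33 (SE 0.14, limma adjusted p 0.55). Btg2, an antiproliferative p53 target, differed by 0.33.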

How the data were processed

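The labels give 3 vehicle and 3 AZD7507 tumours, each sequenced as total RNA after ribosomal depletion. The deposited values are log2 RPKM that the authors normalized with cqn, a correction for GC content and length, per the name of the deposited table; upper quartiles were equal between libraries, at 3.52, which hides any shift common to all genes. BWA 0.7.15-r1140, HTSeq, mm10 and GRCm38 are named in the submitters' processing notes; annotation release, strand setting and low-value filter are not given in the sources used here. No counts were used, so no counting interval is given. Symbols matched 16306 of 16344 identifiers; gene coordinates are GENCODE M21 on GRCm38.

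Without rescaling, the log2 values went into limma 3.58.1 in R 4.3.3 (trended, robust prior; 2-sided; Benjamini-Hochberg over all genes; threshold 0.05), a fit tested on simulated data. Intervals are limma's 95% intervals, unadjusted. The 42 genes, their division (Ccna2 under mitosis), the 3 pathway lists and 9 marker lists were chosen with earlier results of these data known, so no p is given for a list. Named genes are the 42, the 3 with the smallest p of each pathway list (1 of them is not reported here), every gene of those lists past the threshold, and Csf1r; Krt18, Wt1 and Pax8 were chosen after their values were seen. Replicates are numbered in accession order; the labels name no batch or pairing and no animal per tumour, so p-values reflect only tumour-to-tumour spread. Marker lists not reported above (fibroblast, endothelial, T cell, B and plasma cell, neutrophil, erythroid) had mean log2 levels of 4.47, 1.26, -1.03, 0.31, 0.01 and 2.34 with vehicle and 4.32, 1.32, -1.73, -0.51, 0.54 and 1.52 with AZD7507. Alternatives were quantile normalization, array weights, a constant prior, median centring, pseudocounts of 0.1 or 1, dropping genes with a mean log2 RPKM under 0, an acinar covariate, leaving out each library or both acinar-rich ones, and other divisions of the list.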

Additional observations from a re-analysis of the deposited data

How the results depend on the processing

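In none of the 15 alternative fits did any of the 42 genes pass (smallest limma adjusted p 0.22, with array weights). The S phase median stayed between 0.03 and 0.26 and the mitosis median between -0.01 and 0.40, each within 1 SD of library means of its value with all 6 libraries. Counting Ccna2 as S phase gave medians of 0.17 and 0.14. The number of the 42 genes with AZD7507 above vehicle in every library, 2 with all libraries, was 2 to 15 when 1 library was left out and 16 without both acinar-rich libraries. The share over all genes also grows as groups shrink: it was 7.34% with all libraries, 10.1% to 17.7% when 1 was left out (17.7% without Vehicle 2, where the count was 15) and 26.6% without both. Over all genes, 3 rose and 55 fell; the counts were 1 and 43 with a constant prior, 14 and 143 with array weights, 15 and 185 with the acinar covariate, 1 and 13 without both acinar-rich libraries, and 0 and 0 to 14 when 1 library was left out. The cause was not tested. A constant prior and the dropping of genes with a low mean leave each difference as it was, so neither could change a sign. Quantile normalization, median centring and the pseudocounts changed none. Of 630 recomputed differences, these fits included, 52 changed sign, in 22 of the genes, none of which had passed. With array weights these were Cdc6 (-0.0082), Mcm5 (-0.0034), Mcm6 (-0.022), Lig1 (-0.016) and Rrm2 (0.29). Without both acinar-rich libraries they were Cdc6 (-0.061), Mcm5 (-0.040), Mcm6 (-0.039), Lig1 (-0.047) and Rrm2 (0.53), and with the acinar covariate Ccne2 (-0.017). Ranges over leaving out 1 library, for S phase genes, were Cdt1 -0.019 to 0.21, Mcm2 -0.0094 to 0.24, Mcm5 -0.015 to 0.21, Mcm6 -0.10 to 0.14, Pole -0.31 to 0.094, Lig1 -0.072 to 0.20, Rrm2 -0.39 to 0.44, Ccne1 -0.057 to 0.72, Ccne2 -0.17 to 0.33 and E2f1 -0.075 to 0.12. For mitosis genes they were Ccnb2 -0.012 to 0.54, Foxm1 -0.041 to 0.49, Aurka -0.19 to 0.39, Birc5 -0.060 to 0.20, Bub1 -0.032 to 0.39, Kif23 -0.069 to 0.28, Tpx2 -0.048 to 0.44, Prc1 -0.040 to 0.22, Cenpe -0.083 to 0.46, Cenpf -0.032 to 0.17 and Mki67 -0.21 to 0.10. The genes without a sign change are among the 39 of 42 that moved by over 1.5 times, with the exceptions of Pcna (0.27 to 0.52), Fen1 (0.24 to 0.32) and Cdc20 (0.27 to 0.54). No paired analysis was made because the labels name no pairing. Tumours numbering 3 per group and an unknown depth limit the precision.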
